A study of Homo sapiens with 2 samples.

Results

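The genes described here were 46 interferon-stimulated and antigen presentation genes, taken by name, with earlier results of these data known. The array carries at least 1 probe set with a single gene symbol for 18132 genes, among them all of the 46 except STAT2 and USP18. RNA came from HCT116, an established human colorectal carcinoma cell line. One culture carried a scrambled hairpin (treatment Scr, the control) and the other a short hairpin RNA against SUN2 (shSUN2-1, the knockdown), and nothing else in the labels separates them. SUN2 spans the inner nuclear membrane as part of the LINC complex, which couples the nucleus to the cytoskeleton, and the comparison asked which transcripts lie downstream of it. Each group was 1 Affymetrix array of biotin-labelled cRNA, with 1 hairpin, so no replicate, no SD and no p-value exists for any value below.

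Type I and type III interferons are secreted when a cell senses viral or misplaced nucleic acid. They signal through receptor-bound kinases to a complex of STAT proteins and IRF9, which binds the interferon-stimulated response element (ISRE) in the promoters of many genes. Their products block viral entry, translation and replication. Interferon gamma acts mainly through another element, the gamma-activated sequence (GAS), and raises the machinery that cuts proteins into peptides, carries the peptides into the endoplasmic reticulum and displays them on MHC class I molecules. Many cells keep a low tonic level of this programme without added interferon.

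Sequences are shown for the 4 members with the highest increases, for B2M, whose 8 probe sets were all higher, and for IFITM1, the member with the lowest value, because all of them carry the ISRE letters next to their start. Each is the RefSeq promoter window of GRCh38.p14, from 250 bases before to 50 after the start, written 5′ to 3′ on the strand of the gene, with the ISRE letters in capitals. These are GAAA, any 2 bases and GAAA again, or the reverse complement of that.
IFI27, chr14:94110486-94110785, plus strand: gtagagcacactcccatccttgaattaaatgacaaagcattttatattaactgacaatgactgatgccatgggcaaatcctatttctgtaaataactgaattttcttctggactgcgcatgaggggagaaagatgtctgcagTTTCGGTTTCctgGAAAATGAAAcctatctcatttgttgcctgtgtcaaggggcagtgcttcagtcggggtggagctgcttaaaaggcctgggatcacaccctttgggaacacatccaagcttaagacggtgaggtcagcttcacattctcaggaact
IFI6, chr1:27672143-27672442, minus strand: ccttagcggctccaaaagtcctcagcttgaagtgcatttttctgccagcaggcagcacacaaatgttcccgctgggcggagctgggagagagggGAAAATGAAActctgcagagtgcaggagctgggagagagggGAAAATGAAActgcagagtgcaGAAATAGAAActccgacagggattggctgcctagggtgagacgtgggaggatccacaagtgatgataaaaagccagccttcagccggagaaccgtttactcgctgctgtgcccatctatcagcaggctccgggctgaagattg
ISG15, chr1:1013247-1013546, plus strand: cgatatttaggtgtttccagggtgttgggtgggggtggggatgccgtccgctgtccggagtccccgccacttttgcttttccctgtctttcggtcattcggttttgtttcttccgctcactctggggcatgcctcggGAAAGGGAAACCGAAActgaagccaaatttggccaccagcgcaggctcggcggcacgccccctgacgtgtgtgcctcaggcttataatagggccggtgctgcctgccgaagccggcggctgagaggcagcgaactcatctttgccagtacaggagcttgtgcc
IFIT1, chr10:89392373-89392672, plus strand: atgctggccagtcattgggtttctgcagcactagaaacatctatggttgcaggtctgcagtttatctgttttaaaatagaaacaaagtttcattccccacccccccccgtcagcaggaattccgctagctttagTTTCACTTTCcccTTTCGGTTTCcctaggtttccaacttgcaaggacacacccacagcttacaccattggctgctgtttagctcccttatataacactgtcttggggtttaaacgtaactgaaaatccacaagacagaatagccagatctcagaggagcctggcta
B2M, chr15:44711267-44711566, plus strand: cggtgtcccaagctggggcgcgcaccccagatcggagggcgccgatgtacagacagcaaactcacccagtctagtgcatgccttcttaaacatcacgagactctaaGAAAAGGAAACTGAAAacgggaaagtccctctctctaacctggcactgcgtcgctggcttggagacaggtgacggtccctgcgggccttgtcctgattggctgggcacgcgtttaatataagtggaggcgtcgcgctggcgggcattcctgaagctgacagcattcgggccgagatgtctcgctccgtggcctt
IFITM1, chr11:313790-314089, plus strand: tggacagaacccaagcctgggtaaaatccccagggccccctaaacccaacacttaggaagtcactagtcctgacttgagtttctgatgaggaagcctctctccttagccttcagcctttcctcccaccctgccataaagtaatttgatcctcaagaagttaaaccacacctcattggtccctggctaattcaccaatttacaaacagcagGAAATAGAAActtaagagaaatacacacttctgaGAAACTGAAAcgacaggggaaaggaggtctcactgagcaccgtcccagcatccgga
The capitals begin 108 and 95 bases before the start in IFI27, and 156, 115 and 93 bases before it in IFI6. In ISG15 and B2M they run together as GAAAGGGAAACCGAAA and GAAAAGGAAACTGAAA, 113 and 144 bases before the start. In IFIT1 they begin at 116 and 103 bases, and in IFITM1 closer to the start, at 40 and 6 bases. IFI27 has a second RefSeq start downstream, and its window holds the same capitals.

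Values were compared as knockdown minus control on the log2(intensity + 16) scale, on the brightest probe set of each gene. A gene passed the filter on low values when its mean over both arrays reached the median of all probe sets, an intensity of about 108. Passing the filter does not by itself show expression, because some background controls, given below, also read above it. Of the 46 genes, 35 passed, 9 lay below the filter and 2, STAT2 and USP18, had no probe set with 1 symbol. The filter uses the mean of both arrays, so a gene could pass through the knockdown array: ISG20 read 96.7 in the control. IFI44L passed through the control array, with 106.5 in the knockdown. Intensities of different genes cannot be set against each other, because each probe set has its own response.

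The targeted gene, SUN2, read 497.7 in the control and 407.3 in the knockdown, 81.8% of control, and the 4 probe sets above the filter were all lower. The array medians were 108.8 and 107.1. Each of 18 hybridization spike-in probe sets was higher on the knockdown array, at most by 0.16, while 20 of 23 background controls were lower on it. The background controls' differences ran from -0.33 to 0.01, with a median of -0.04, and the lowest was the one with 25 G or C bases. Their intensities in the control ran from 31.2 to 1425, with 153.5 at 17 G or C bases. A reading just past the filter may thus be background. The part of base content in the members' values was not tested. With probe sets cut into 10 equal bins by brightness, the brightest bin had a median difference of 0.10. Bright members are therefore also given after a loess correction that removes the trend of the difference with brightness. The SD of probe sets about the mean of their gene, here called the probe set scatter, was 0.09 in log2. It reflects probe error and says nothing of variation between cultures. Of 8 colon epithelial markers 6 passed the filter and all 6 were higher before loess, where 49.8% of all genes were. KRT8 led them at 0.34 (0.24 after loess), and CDH1 stood at 0.04 (-0.003 after loess). VIL1 and CDH17 lay below the filter. The list's summed intensity was 7681 and 8998, of which KRT19 alone gave 2619 and 3045. Of 22 markers of immune cells, plasmacytoid dendritic cells, fibroblasts and endothelium, 8 passed, with sums of 2255 and 2123 over the 20 measured. All 8 were lower before loess, where 6139 of 12220 genes were, and CD74 stood at 0.0005 after it. The part of either shift in the members' values was not tested.

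Most members were higher in the knockdown array, by small amounts. The list was chosen with earlier results of these data known, so the shares of all genes beside it are description alone. With 1 bulk sample per group, a change in all cells and a larger change in some of them cannot be told apart. Of the 35 past the filter, 29 were higher (82.9%) and 6 were lower, where 49.8% of the 12220 genes past the filter were higher. After loess 26 were higher, against 46.3% of all genes. Their median difference was 0.17, with quartiles of 0.02 and 0.31, against -0.0009 for all genes. IFI27, IFI6 and ISG15 were at least 1.5-fold higher, where 0.336% of all genes were, and none was 1.5-fold lower (0.0245% of all genes). IFI27 alone was at least 2-fold higher (0.0736% of all genes), and none was 2-fold lower (0.00818%). Over all genes the 1.5-fold calls were 41 higher and 3 lower, and 32 and 8 after loess, with the same 3 members among them. Without these 3 genes, 26 of 32 members were still higher and their median was 0.16. At 1.2-fold, 12 members were higher and 0 lower, against 5.95% and 0.884% of all genes. At 1.25-fold, the size used first, 9 were higher and 0 lower, against 3.09% and 0.442%. Without ISG20, which passed the filter through the knockdown array alone, 11 of 34 were 1.2-fold higher and 28 were higher in all. Among the members' 67 probe sets past the filter 54 were higher, 80.6%, where 51.0% of all such probe sets were. With a pair of B2M probe sets that hold identical values counted once, 53 of 66 were higher, 80.3%.

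**Figure D1:**
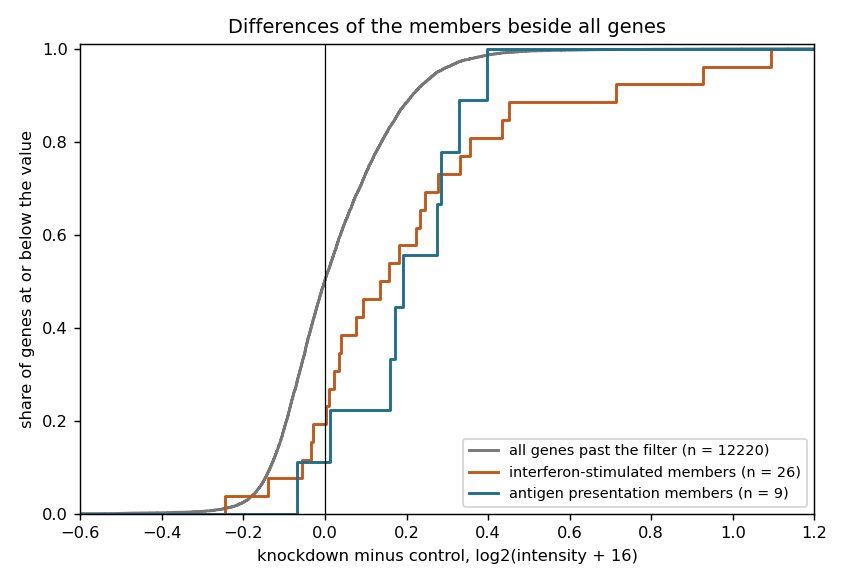
Cumulative share of genes (y axis) at or below a given knockdown minus control difference in log2 (x axis), for all 12220 genes past the filter, 26 interferon-stimulated members and 9 antigen presentation members, 1 array per group. Both member curves lie to the right of that of all genes over most of the axis, and the interferon-stimulated curve has a tail of 3 genes beyond 0.7.

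IFI27 and IFI6 are small hydrophobic proteins of one family that reach mitochondria and are strongly induced by interferon in many cell types. The brightest IFI27 probe set read 547.8 in the control and 1186 after knockdown, a difference of 1.09 or 2.13-fold, the 7th highest of 12220 genes. The second IFI27 probe set read 120.4 and 165.9, a difference of 0.42, so both were higher but the dimmer one by much less. IFI6 has 1 probe set, which read 246.2 and 482.7, a difference of 0.93 or 1.90-fold, the 11th highest. After the loess correction IFI27 stood at 1.00 and IFI6 at 0.89.

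ISG15 is a ubiquitin-like protein that is both secreted and attached to newly made proteins. Its 1 probe set read 1016 and 1677, a difference of 0.71 or 1.64-fold, the 24th highest, and 0.61 after loess. HERC5, the main ligase that attaches ISG15, read 252.8 and 297.5, a difference of 0.22. HERC6, its relative, read 123.5 and 131.1, a difference of 0.08 that is smaller than the probe set scatter. USP18 removes ISG15 and restrains the interferon receptor. It is covered by a probe set that also names 4 related loci, which read 180.9 and 197.6, a difference of 0.12.

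**Figure D2:**
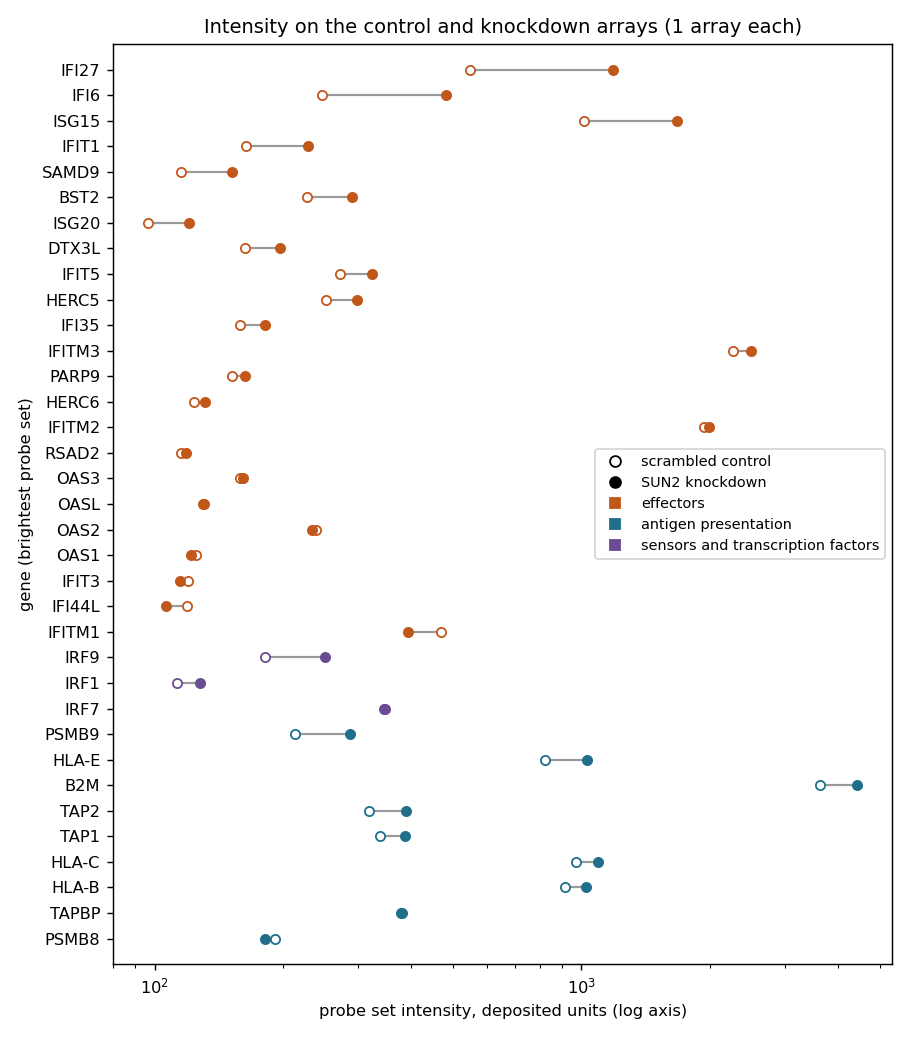
Intensity of the brightest probe set (x axis, log scale, deposited units) on the scrambled control array (open) and the SUN2 knockdown array (filled) for the 35 members past the filter (y axis), ordered by difference within effectors, transcription factors and antigen presentation. The pairs are widest for IFI27, IFI6 and ISG15, and IFITM1 is the clearest pair with the control above the knockdown.

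The IFIT proteins bind viral RNA and block its translation. IFIT1, which recognises RNA caps that lack a methyl group, read 163.4 and 229.3 on its 1 probe set, a difference of 0.45 or 1.37-fold, the 99th highest. IFIT5 read 272.5 and 323.1, a difference of 0.23, with 0.08 on a second probe set below the filter. IFIT3, the partner that stabilises IFIT1, read 119.9 and 114.7 on its 1 probe set, a difference of -0.06 that is smaller in size than the probe set scatter. IFIT2 lay below the filter, with 0.13 and -0.07 on its 2 probe sets. On their brightest probe sets IFIT1 and IFIT5 were thus higher in the knockdown culture, while the IFIT3 difference lay within the probe set scatter.

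The IFITM proteins sit in membranes and hinder the fusion of enveloped viruses. IFITM1, the form at the cell surface, was the lowest of all members, reading 468.7 and 393.2, a difference of -0.24 (-0.30 after loess). Its second probe set read 192.7 and 162.7, a difference of -0.22, so both went down together. IFITM2 read 1944 and 1997 and IFITM3 read 2268 and 2492, differences of 0.04 and 0.14 that became -0.07 and 0.03 after loess. These 3 genes are closely related in sequence, and all their probe sets except the second of IFITM1 are of the _x_at class. Probes of that class may match other transcripts, so the assignment of those probe sets to 1 gene is uncertain. BST2, or tetherin, which holds budding virus particles at the cell surface, read 227.8 and 290.9, a difference of 0.33 or 1.26-fold. Its second probe set past the filter read 121.0 and 156.4, also 0.33, and of the 2 below the filter one differed by 0.56 and the other by -0.04.

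Several well-known members had differences close to 0. The OAS enzymes make the 2′-5′-linked oligoadenylate that activates RNase L, and all 4 lay within 0.04 of 0 on their brightest probe sets: OAS1 at -0.03, OAS2 at -0.03, OAS3 at 0.02 and OASL, an enzymatically inactive relative, at 0.01. OAS2 had 3 probe sets above the filter, all lower, between -0.17 and -0.03. A pair of probe sets that name both OAS2 and OAS3 went the other way: one read 576.2 and 770.1, a difference of 0.41, and the other 122.3 and 151.7, a difference of 0.28. The OAS result thus depends on whether these are counted, and which of the genes they reflect cannot be told from the values. MX1 and MX2, GTPases that target viral capsids, lay below the filter at 0.05 and -0.03. RSAD2, or viperin, which makes a chain-terminating nucleotide, read 115.2 and 118.3, a difference of 0.03. Its neighbour CMPK2 lay below the filter at -0.11.

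Other effectors were higher by intermediate amounts. SAMD9, a cytoplasmic factor that restricts poxviruses, read 115.6 and 152.3 on its 1 probe set, a difference of 0.36 or 1.28-fold. ISG20, a 3′-to-5′ RNA exonuclease, read 96.7 and 120.6, a difference of 0.28. DDX60, a helicase linked to RNA sensing, lay below the filter at 66.8 and 86.1, a difference of 0.30. DTX3L, an E3 ligase, and its partner PARP9 read 163.0 and 196.3 and 152.0 and 163.2, differences of 0.25 and 0.09. The DTX3L value rests on 1 probe set of the _s_at class: the other 2, below the filter, differed by -0.03 and 0.09, and the mean of all 3 was 0.10. The other 2 PARP9 probe sets, also below the filter, differed by 0.24 and 0.03. IFI35 stood at 0.18, with 0.05 on its second probe set. IFI44L read 118.9 and 106.5, a difference of -0.14. Its other 2 probe sets, below the filter, both differed by -0.05, and the mean of all 3 was -0.08. IFI44, the neighbour of IFI44L (-0.05), and the pro-apoptotic factor XAF1 (-0.09) lay below the filter. The 6 IFI44 probe sets ran from -0.08 to 0.11 and the 7 of XAF1 from -0.11 to -0.0014.

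**Figure D3:**
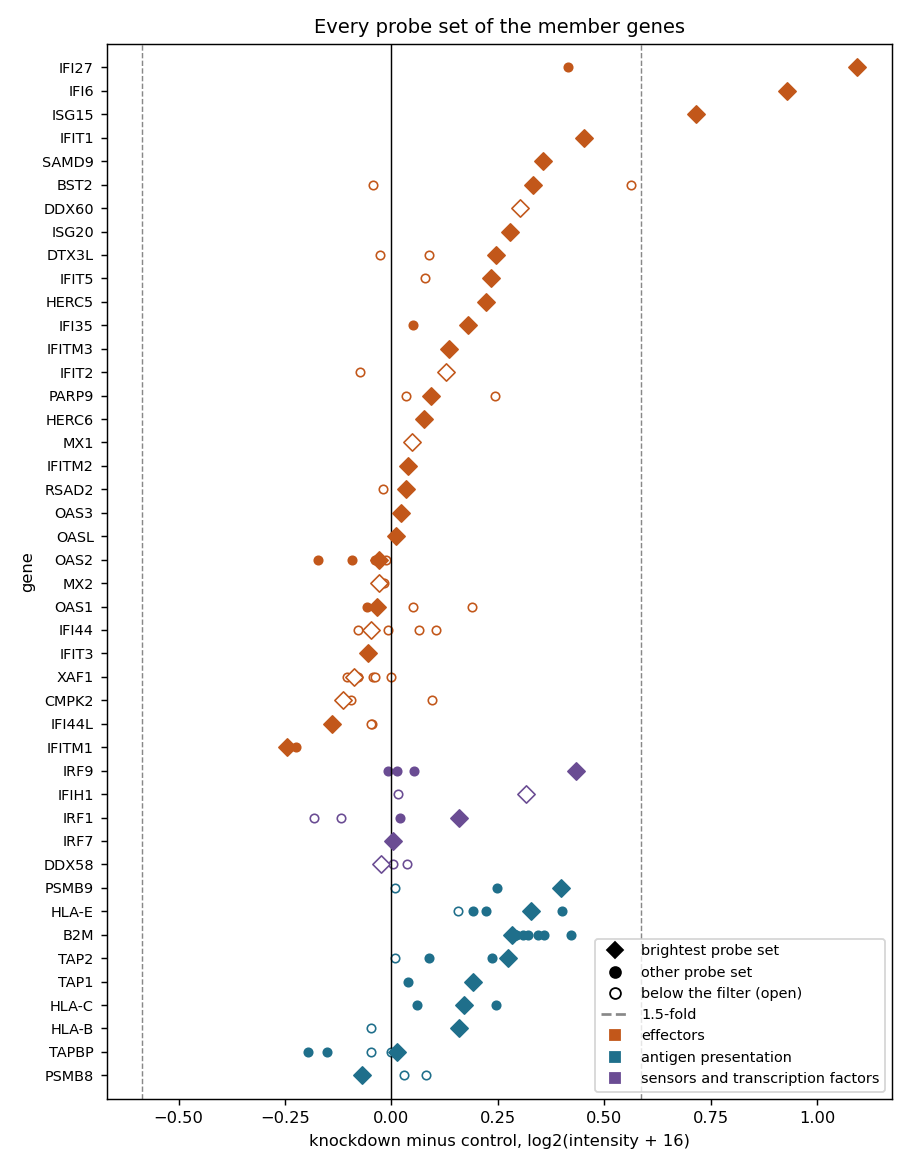
Knockdown minus control difference in log2 (x axis) of every probe set of the 44 members with a probe set of 1 symbol (y axis). Diamonds are the brightest probe set of a gene, circles the others, open symbols lie below the filter, and dashed lines mark 1.5-fold. The B2M, HLA-E and BST2 symbols past the filter lie together above 0, while IRF9 has 1 probe set far from its other 3.

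Among the regulators, IRF9 stood out on a single probe set. IRF9 is the DNA-binding subunit of the complex that occupies the ISRE. Its brightest probe set read 181.1 and 250.2, a difference of 0.43, while the 3 others past the filter differed by -0.01, 0.01 and 0.05, and the mean over all 4 was 0.12. IRF1, which drives antigen presentation genes, stood at 0.16 and at 0.02 on its second probe set past the filter, and its 2 probe sets below the filter were lower. IRF7, the amplifier of interferon alpha production, read 345.8 and 346.6, a difference of 0.003 that was -0.03 after loess. The RNA sensors were dim: DDX58, which encodes RIG-I, read 81.0 and 79.4, and IFIH1, which encodes MDA5, read 78.0 and 100.9, a difference of 0.32 below the filter, with 0.02 on its other probe set.

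Antigen presentation genes were higher as a group and none by 1.5-fold. All 9 passed the filter and 8 were higher, where 49.8% of all genes were. After loess 7 of 9 were higher, against 46.3%. Their median was 0.19 (0.15 after loess), against -0.0009 for all genes (-0.01 after loess). B2M, the invariant light chain of MHC class I, had the most repeat measurements: its brightest probe set read 3634 and 4428, a difference of 0.28 or 1.22-fold, and all 8 were higher, from 0.28 to 0.42. A pair of these held identical values, so the 8 are not all separate measurements. Loess left B2M at 0.18. The non-classical chain HLA-E, a ligand of inhibitory receptors on natural killer cells, read 820.2 and 1034, a difference of 0.33 (0.23 after loess), with all 6 of its probe sets higher, from 0.16 to 0.40 before loess. The classical chains HLA-B and HLA-C read 914.4 and 1023 and 971.8 and 1096, differences of 0.16 and 0.17 that shrank to 0.06 and 0.07 after loess. The unique-class HLA-B probe set, which lies below the filter, differed by -0.05. HLA genes are near-identical, so the assignment of these probe sets to 1 chain is uncertain. The 1 probe set that names both HLA-B and HLA-C read 113.8 and 110.5, a difference of -0.04.

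Peptide supply went partly the same way. TAP1 and TAP2 form the transporter that carries peptides into the endoplasmic reticulum. TAP1 read 336.8 and 386.8, a difference of 0.19 with 0.04 on its second probe set, and TAP2 read 318.6 and 388.5, a difference of 0.27, with its 3 probe sets past the filter from 0.09 to 0.27. TAPBP, or tapasin, which bridges the transporter and the class I chain, stood at 0.01 (-0.03 after loess), and its other 2 probe sets past the filter were lower, at -0.20 and -0.15. Of the immunoproteasome subunits, PSMB9 read 213.8 and 286.9, a difference of 0.40 or 1.32-fold. Another PSMB9 probe set above the filter stood at 0.25, and the one below it at 0.01. PSMB8 read 191.6 and 181.9, a difference of -0.07 that is smaller in size than the probe set scatter. The other PSMB8 probe sets, below the filter, were higher by 0.03 and 0.08, and the mean of all 3 was 0.01. The direction of PSMB8 thus depends on which probe sets are counted. The constitutive counterparts PSMB5, PSMB6 and PSMB7 stood at 0.24, 0.07 and 0.17 before the loess correction and at 0.14, -0.04 and 0.06 after it. PSMB9 stayed at 0.39 after loess.

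**Figure D4:**
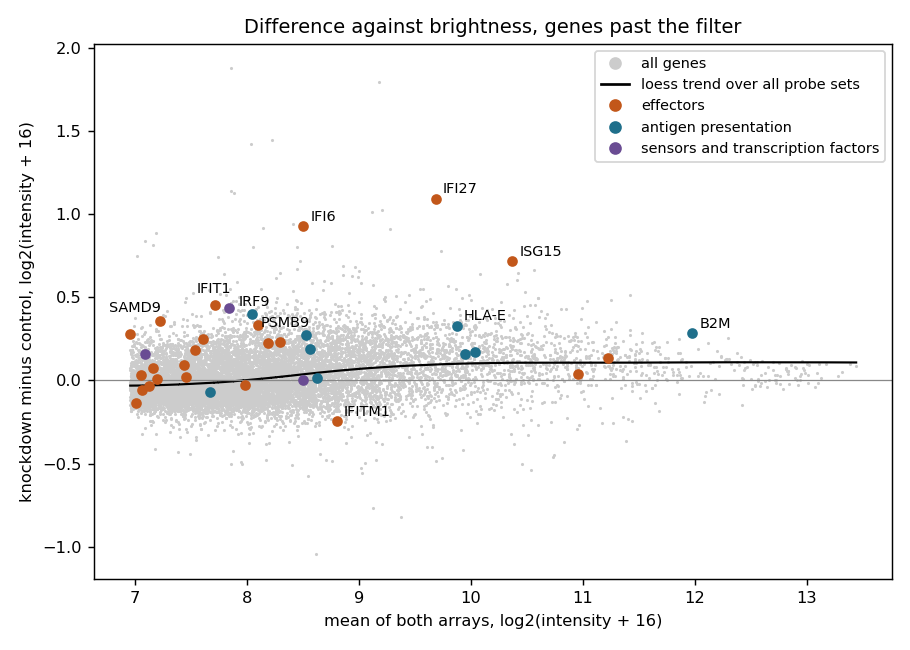
Knockdown minus control difference (y axis, log2) against the mean of both arrays (x axis, log2) for the 12220 genes past the filter (grey) and the 35 members (coloured), with the loess trend (line). IFI27, IFI6 and ISG15 lie well above the trend, and the trend is above 0 where the bright members B2M and HLA-E lie.

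Repeat probe sets mostly agreed in direction. Of 17 members with at least 2 probe sets past the filter, 15 had all of them in 1 direction, where 63.9% of all such genes did. In 12 of them all were higher (34.5% of all such genes), in IFITM1, OAS1 and OAS2 all were lower, and IRF9 and TAPBP were split. These counts are before loess. After it the probe sets of IFITM2 and TAPBP past the filter were all lower, and those of IRF9 all higher. The share over all genes was not computed after loess. OAS1 also had 2 probe sets below the filter, which were higher, by 0.19 and 0.05. The repeat measurements share the same RNA, and some may hold probes in common, so they bear on probe error alone.

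ISRE letters were common in the promoter windows of the members. Windows were found for 38 of the 46 genes. At least 1 match to the ISRE letters on either strand was present in 26 of these 38 (68.4%) and 2 or more, overlapping ones counted, in 17, where 4.38% of 27305 genes and 3.57% of 35116 windows held one. The GAS letters TTCNNNGAA, which read the same on both strands, were in 11 of the 38 (28.9%) against 9.38% of genes, and overlapped ISRE letters in BST2, IFI27, IFITM1 and MX1. Among members past the filter, the 22 with ISRE letters had a median difference of 0.23 and 18 of them were higher (81.8%), while the 8 without had a median of 0.17 and 7 were higher (87.5%). Outside the members, 328 genes past the filter held the letters, with a median of 0.02, 56.1% of them higher and 8.84% at least 1.2-fold higher (5.18% at 1.25-fold), and none was 1.5-fold higher. Of the 9554 genes past the filter without the letters in their windows, members included, 51.6% were higher and 6.09% were at least 1.2-fold higher (3.2% at 1.25-fold). A match is a description of the sequence and not a measured binding site.

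Some members share a promoter region. The windows of TAP1 and PSMB9, which lie head to head, overlap by 13 bases, and their differences were 0.19 and 0.40. Those of DTX3L and PARP9 overlap by 137 bases, with differences of 0.25 and 0.09. Those of RSAD2 and CMPK2 overlap by up to 165 bases, with 0.03 and -0.11, CMPK2 below the filter. The first 2 pairs were higher on both genes and the last was close to 0 on RSAD2.

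Further interferon pathway and antigen presentation genes, listed apart from the members, are given here by list. The totals also count the 3 constitutive proteasome genes, which were all higher before loess. Of 91 further genes 84 were measured under a single symbol and 61 lay above the filter: 37 were higher, where 49.8% of all genes were, 24 were lower, none was 1.5-fold higher (0.336% of all genes), and their median was 0.02. After loess 34 were higher, against 46.3% of all genes. The lists' medians ran from -0.12 for the receptors to 0.17 for the constitutive proteasome genes, leaving out the ligands with 1 gene. Interferon ligands were dim: 1 of 7 measured passed the filter, IFNG at -0.05, and IFNB1 read 75.2 and 74.4. Of 5 receptor genes past the filter 3 were lower, with IFNAR2 at -0.18, IFNGR2 at -0.15 and IFNLR1 at -0.12. Of 12 signal transducers and inhibitors 5 were higher, led by STAT3 at 0.22 and the phosphatase PTPN2 at 0.21, and PTPN6 was the lowest at -0.16.

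Of 9 nucleic acid sensing genes past the filter 6 were higher, before and after loess, where 49.8% and 46.3% of all genes were. EIF2AK2, which encodes the RNA-activated kinase PKR, read 224.2 and 292.7, a difference of 0.36, and the RNA-editing enzyme ADAR came next at 0.17 (0.07 after loess). The adaptor STING1 was the lowest of the 9, at -0.09. Of 18 further interferon-stimulated genes 12 were higher, also after loess (66.7%, beside the same shares of all genes), and their median was 0.08. PLSCR1, a phospholipid scramblase, read 317.0 and 394.1, a difference of 0.30, with its 5 probe sets past the filter from 0.23 to 0.35. NMI stood at 0.20, and PML, the organiser of nuclear bodies, at -0.25, with 5 probe sets from -0.25 to 0.01. Interferon-induced genes that are silent in many epithelial cells, such as CXCL10 (67.5 and 66.7) and GBP1 (48.8 and 48.6), lay below the filter on both arrays.

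Of 13 further antigen presentation genes past the filter 9 were higher, where 49.8% of all genes were, with a median of 0.02. After loess 7 were higher (53.8%), near the 46.3% of all genes. HLA-F was highest, reading 246.4 and 338.4, a difference of 0.43, although the 5 above the filter spread between -0.09 and 0.43. The proteasome activator subunit PSME2 read 1234 and 1459, a difference of 0.24 (0.13 after loess), and its partner PSME1 stood at 0.02 (-0.08 after loess). NLRC5, the transactivator of class I genes, read 107.3 and 123.8, a difference of 0.18, and so passed the filter through the knockdown array alone. TAPBPL was lowest at -0.15. PSMB10, the third immunoproteasome subunit, stood at 0.15 (0.09 after loess), with 3 probe sets from 0.15 to 0.22 before loess. Of 8 immune markers measured, 3 passed the filter and all 3 were lower before loess, with CD74 at 0.0005 after it. These were CD3E, CD68 and CD74, which read 137.2, 148.4 and 141.6 in the control. The others lay below the filter, among them PTPRC, the pan-leukocyte gene, which read 53.7 in the control and differed by -0.08. The summed intensity of the 8 immune markers was 752.9 and 712.9.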

How the data were processed

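The deposited table holds probe set intensities of Affymetrix arrays on a linear scale, 1 column per array. MAS5 and RMA appear in the submitters' processing notes without a stated role, and how the arrays were scaled to each other is not known here. Background was still part of the values, which makes a fold understate a difference for dim genes. Of 49293 probe sets without controls, 44988 had 1 gene symbol, 1832 several and 2473 none; symbols were updated through the Entrez ID (44961 matched, RefSeq for GRCh38.p14). Values were taken as log2(intensity + 16) and filtered as stated above, in Python 3.11.15 with pandas 2.3.3. The 11 alternatives used limma 3.58.1 in R 4.3.3 for quantile, loess and normexp. The gene step was tested on simulated data. The members and lists were chosen with earlier results of these data known, and the comparison of genes with and without ISRE letters was chosen after the values were seen. So was the 1.2-fold size: 1.25-fold was used first and was replaced, once its counts were known, for a reason of number format alone, so both are printed. All 46 members are named, and of the other pathway genes the 3 furthest from 0 in each list and any past 1.5-fold; single genes beside these were chosen after their values were seen. With 1 array per group there was no test, and the number of arrays limits the precision.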

Additional observations from a re-analysis of the deposited data

Results flagged for a closer look

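A probe set outside the gene comparison, because it names both OAS2 and OAS3, had a signal more than 3 times the probe set SD above the control array: it read 576.2 in the control and 770.1 in the knockdown, a difference of 0.41, or 0.32 after the loess correction.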

How the results depend on the processing

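No paired analysis was possible because there was 1 array per group, which also leaves none to drop. The count of members at least 1.5-fold higher was 3 under 10 of the 11 alternatives and 1 (IFI6) without the _x_at and _s_at classes, where IFI27 and ISG15 have no probe set left. The count at least 2-fold higher was 2 with normexp and 0 with quantile normalization, loess, the mean of all probe sets and without the _x_at and _s_at classes. Higher members numbered 18 of 20 with the filter at the 75th percentile, where 59.7% of all genes were higher. No member was 1.5-fold lower in any setting. The median difference of the members lay between 0.12 (mean of all probe sets) and 0.23 (filter at the 75th percentile). Over all genes, quantile normalization gave 29 calls higher and 10 lower at 1.5-fold.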
